A study of Mus musculus with 13 samples.

Results

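The genes described here are 10 members of the intermediate filament family in the mouse retina: Gfap, Vim, Nes and Synm of glia, Nefl, Nefm, Nefh and Ina of neurons, and the paired keratins Krt8 and Krt18. They are 10 of the 19937 genes that the arrays measured with a probe set annotated with exactly 1 gene symbol, and they had 11 such probe sets, since Ina had 2. Of the 10, 8 were chosen for their family and cell type. Synm and Krt18 were chosen for their pattern in these arrays, so their values are a description and were not tested.

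Intermediate filaments are the tough, rope-like polymers of the cytoskeleton, and each cell type builds them from its own set of proteins. In the retina Müller glia carry vimentin and a low level of glial fibrillary acidic protein, the astrocytes of the nerve fibre layer carry much of the latter, and neurofilaments fill the axons of ganglion cells and the processes of horizontal cells. A rise of Gfap and Vim in Müller glia after injury is a textbook sign of gliosis, and signalling through cytokines of the interleukin-6 family, their shared receptor subunit and the transcription factor STAT3 is a known inducer of Gfap.

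RNA from the pooled 2 retinae of each mouse was hybridized to 1 Affymetrix Mouse Gene 1.0 ST array, giving 13 arrays. KO mice carried a global deletion of PGC-1α, a coactivator of genes of mitochondrial metabolism, in all tissues on a C57 BL/6 background, and WT mice were C57 BL/6 NRj bought from a breeder; the sources used here do not call them littermates. Mice were between 6 and 13 weeks old and dark adapted for 16 h; the light groups then received 15000 lux for 2 h with dilated pupils, while the dark groups received none. The groups were KO dark with 3 arrays, WT dark with 4, KO light with 3 and WT light with 3, and by their labels all mice of the light groups were male and all of the dark groups female, save WT dark 4, a male. The levels of Xist and of 3 Y-linked genes matched the labelled sex of every array. Sex and light therefore cannot be told apart in any comparison of light with dark. Each comparison of KO with WT lay within a single sex where WT dark 4 was left out or placed with KO light. In the fits that kept it in its group, WT dark held both sexes, so the dark genotypes then differed in sex as well. The methods, which give the ages, name male mice alone. The time between light and sampling is not clear from the sources used here. The knocked-out gene gives no check of the genotype labels, because the place of its probe set relative to the deletion is not known here.

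A pair of arrays stood apart from the other arrays of their groups. Over all genes the array labelled WT dark 4 correlated with KO light 1 and 2 at a mean Pearson r of 0.997 and with the other WT dark arrays at 0.989, and the array labelled KO light 3 correlated with WT dark at 0.997 and with KO light 1 and 2 at 0.992. Results are therefore given for the 12 arrays as labelled, without WT dark 4, and again with WT dark 4 taken as a KO light array and KO light 3 left out, which are called the exchanged arrays. The exchange was chosen from the values of the arrays, so its p-values are not independent of them and do not settle which labels are right. All levels and differences are on the log2 scale of the deposited intensities, and a gene was called when limma's adjusted p over all 19937 genes was under 0.05 and the ratio of the group means was at least 1.2 or at most 0.87. In retinal RNA a lower share of a cell type and less RNA per cell cannot be told apart.

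The promoters of Gfap, Vim and Nes, the 3 members whose levels moved together below, are shown as RefSeq gives them on GRCm38.p6, from 150 bases before the annotated start to 30 bases after it. Capitals mark a match to the STAT motif TTCNNNGAA, which reads the same on both strands.
Gfap, chr11:102897171-102897350, minus strand: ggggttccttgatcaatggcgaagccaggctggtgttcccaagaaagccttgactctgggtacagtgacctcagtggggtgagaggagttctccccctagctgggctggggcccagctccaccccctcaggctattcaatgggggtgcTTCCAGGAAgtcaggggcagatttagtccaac
Vim, chr2:13574161-13574340, plus strand: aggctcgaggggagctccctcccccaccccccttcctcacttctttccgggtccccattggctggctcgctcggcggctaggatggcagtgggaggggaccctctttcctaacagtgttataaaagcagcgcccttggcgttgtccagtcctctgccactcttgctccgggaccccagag
Nes, chr3:87970943-87971122, plus strand: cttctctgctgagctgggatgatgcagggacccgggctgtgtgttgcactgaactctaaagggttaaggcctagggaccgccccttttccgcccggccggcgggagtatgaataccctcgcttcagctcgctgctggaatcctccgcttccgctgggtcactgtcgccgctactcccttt

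Promoter windows of 300 bases were given for 7 of the 10 members, with Nefl, Nefm and Nefh not among them. The STAT motif was found in 1 of these 7, that of Gfap, where the letters TTCCAGGAA ran from position -2 to position 7 around the start, counted without a position 0, and in 8.3% of all 32851 windows. The AP-1 motif TGANTCA, searched on both strands, was found in 0 of the 7 and in 7.81% of all windows. The windows ran from 250 bases before the start to 50 after it, and sites farther away were not searched. The matches describe letters in these windows and not binding.

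Gfap encodes glial fibrillary acidic protein, the filament of astrocytes and of reactive Müller glia, and lies on chromosome 11. Its log2 intensity was 7.09, 7.31 and 7.07 in WT dark 1 to 3 and 7.91, 8.39 and 8.98 in WT light. KO dark arrays read 7.47, 7.39 and 7.30, and KO light arrays read 9.75, 9.88 and 7.37. The array labelled WT dark 4 read 9.71. Every WT light array thus lay above every dark array other than WT dark 4, and KO light 1 and 2 lay above all WT light arrays, while KO light 3 lay among the KO dark arrays.

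Vim encodes vimentin, on chromosome 2, the main filament of Müller glia. It read 11.58, 11.53 and 11.55 in WT dark 1 to 3, and 11.88, 12.001 and 12.07 in WT light. KO dark arrays had 11.57, 11.82 and 11.64, whereas KO light arrays had 12.64, 12.43 and 11.71, and WT dark 4 had 12.71. The order of arrays was that of Gfap at the top, with WT dark 4 and KO light 1 and 2 highest and the WT light arrays next.

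Nes encodes nestin, on chromosome 3, a filament of neural progenitors and of reactive glia. Its levels were 5.77, 5.75 and 5.98 in WT dark 1 to 3, and 6.39, 6.37 and 6.64 in WT light. They were 5.76, 6.01 and 6.05 in KO dark, 6.68, 7.00 and 5.80 in KO light, and 6.95 in WT dark 4. The WT light and WT dark 1 to 3 arrays did not overlap for these 3 genes. The same held for 6 of the 8 tested members, with Nefl, Nefh and Ina lower after light, and for 28.2% of all genes.

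**Figure D1:**
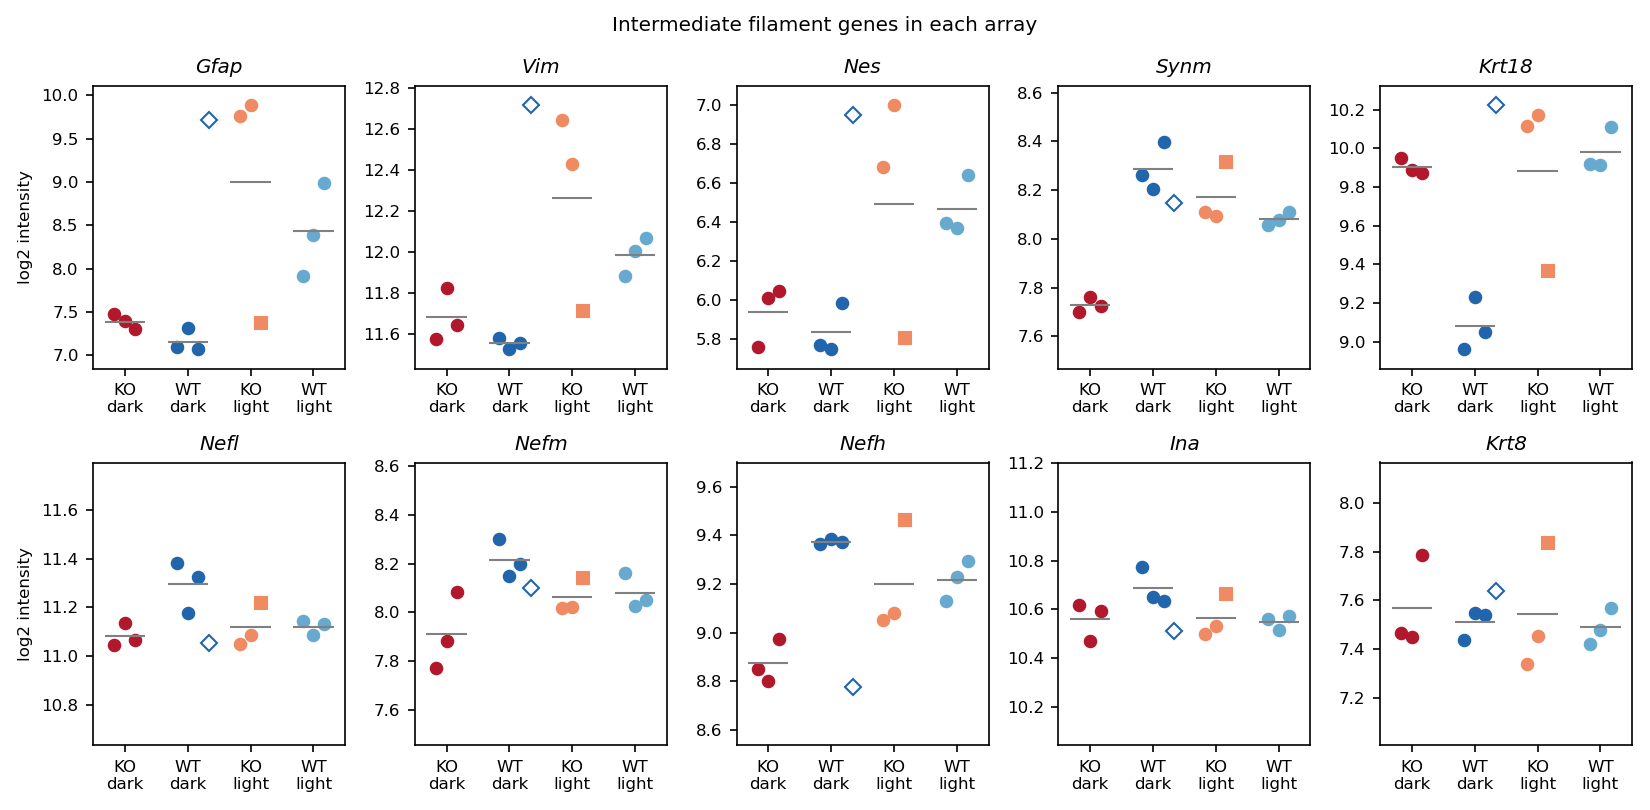
Log2 intensity (vertical axis, a separate range in each panel) of the 10 genes in the 13 arrays by group. Circles are arrays, the square is the array labelled KO light 3, the open diamond is the array labelled WT dark 4, and grey lines are means of the 3 arrays per group without WT dark 4. For Gfap, Vim, Nes and Krt18 the diamond sits with KO light 1 and 2, and the square sits below both of them.

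In WT mice the means of the 3 glial filament genes were higher after light. The difference between WT light and WT dark was 1.27 for Gfap, a ratio of 2.41, 0.64 for Nes, a ratio of 1.55, and 0.43 for Vim, a ratio of 1.35. In the fit of all 12 arrays as labelled 0 of the 8 tested members were called in this comparison, against 0.431% of all genes, with adjusted p of 0.229 for Gfap, 0.234 for Vim and 0.186 for Nes. At an unadjusted p under 0.05 with the same limit on the ratio these 3 of 8 members passed, against 5.76% of all genes. With the array labelled WT dark 4 kept in its group the differences were 0.63 for Gfap, a ratio of 1.55, 0.36 for Nes and 0.14 for Vim. That fit takes its estimate of spread from all groups, and the KO light group spanned 7.37 to 9.88 for Gfap. When only the 6 WT arrays were fitted, 3 of 8 members were called, against 1.76% of all genes called higher, with limma's adjusted p of 0.0269 for Gfap (SE 0.23), 0.00988 for Vim (SE 0.06) and 0.0131 for Nes (SE 0.09). With the exchanged arrays the same 3 rose, against 2.13% of all genes, at adjusted p of 0.00233, 0.00803 and 0.00468, and they were called too without KO light 3 and with no array in its place, against 2.13% of all genes.

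In KO mice the change depended on which array was counted as KO light. As labelled, the KO light mean exceeded the KO dark mean by 1.61 for Gfap (95% confidence interval 0.52 to 2.71), 0.58 for Vim and 0.56 for Nes. In that fit 0 of 8 members were called, against 0.1% of all genes, with adjusted p of 0.207 for Gfap, 0.194 for Vim and 0.299 for Nes, and 4 members, Gfap, Vim, Nes and Nefh, passed at an unadjusted p under 0.05 with that limit on the ratio, against 5.48% of all genes. In the exchanged arrays 3 of 8 rose, against 7.01% of all genes. Gfap then rose by 2.39 (SE 0.19, adjusted p = 5.78e-06), a ratio of 5.26, Nes by 0.94 (SE 0.11, adjusted p = 6.82e-05), a ratio of 1.92, and Vim by 0.91 (SE 0.08, adjusted p = 1.28e-05), a ratio of 1.88. Without the array labelled KO light 3 and with no array in its place, the same 3 were called against 5.68% of all genes, with differences of 2.43, 0.90 and 0.85 for Gfap, Nes and Vim.

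Between genotypes the glial genes differed after light in the exchanged arrays and were not called in the dark. In the dark the KO mean differed from the WT mean by 0.23 for Gfap, 0.13 for Vim and 0.10 for Nes, with intervals from -0.86 to 1.33, -0.25 to 0.50 and -0.38 to 0.59, and the arrays of both genotypes overlapped. With the array labelled WT dark 4 kept in its group the direction turned for all 3, to -0.41, -0.16 and -0.17. After light, as labelled, the differences were 0.57, 0.28 and 0.03, and 0 of 8 members were called, against 0.176% of all genes, with none at an unadjusted p under 0.05 either. Once the arrays were exchanged, 3 of 8 were higher in KO light than in WT light, against 4.56% of all genes: Gfap by 1.35 (SE 0.19, adjusted p = 0.000673), Vim by 0.61 (SE 0.08, adjusted p = 0.000488) and Nes by 0.41 (SE 0.11, adjusted p = 0.0237). These are ratios of 2.55, 1.53 and 1.33. The call of Nes was lost without KO light 2, WT light 1, WT light 2 or WT dark 4 in turn, where the highest adjusted p was 0.0979. Without the array labelled KO light 3 and with none in its place, Gfap and Vim were called, at adjusted p of 0.00336 and 0.00305, against 3.21% of all genes.

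The difference between the light responses of KO and WT was tested as an interaction, called at an adjusted p under 0.05. As labelled it was 0.34 for Gfap and 0.15 for Vim, and 0 of 8 members were called, against 0.0602% of all genes. At an unadjusted p under 0.05 there were 3 members, Nefl, Nefm and Nefh, against 6.86% of all genes. With the exchanged arrays 2 of 8 were called, against 2% of all genes called in that direction: Gfap at 1.12 (SE 0.26, adjusted p = 0.0406) and Vim at 0.48 (SE 0.11, adjusted p = 0.0385). Each of these calls lay near the threshold and was lost without 9 of the 12 exchanged arrays in turn, with adjusted p up to 0.102 for Gfap and 0.101 for Vim. The fit without WT dark 4, which leaves KO light 1 and 2 alone as KO light, gave 1.16 for Gfap (SE 0.29, adjusted p = 0.0826) and 0.42 for Vim (SE 0.11, adjusted p = 0.101), and 0 members were called against 1.03% of all genes.

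**Figure D2:**
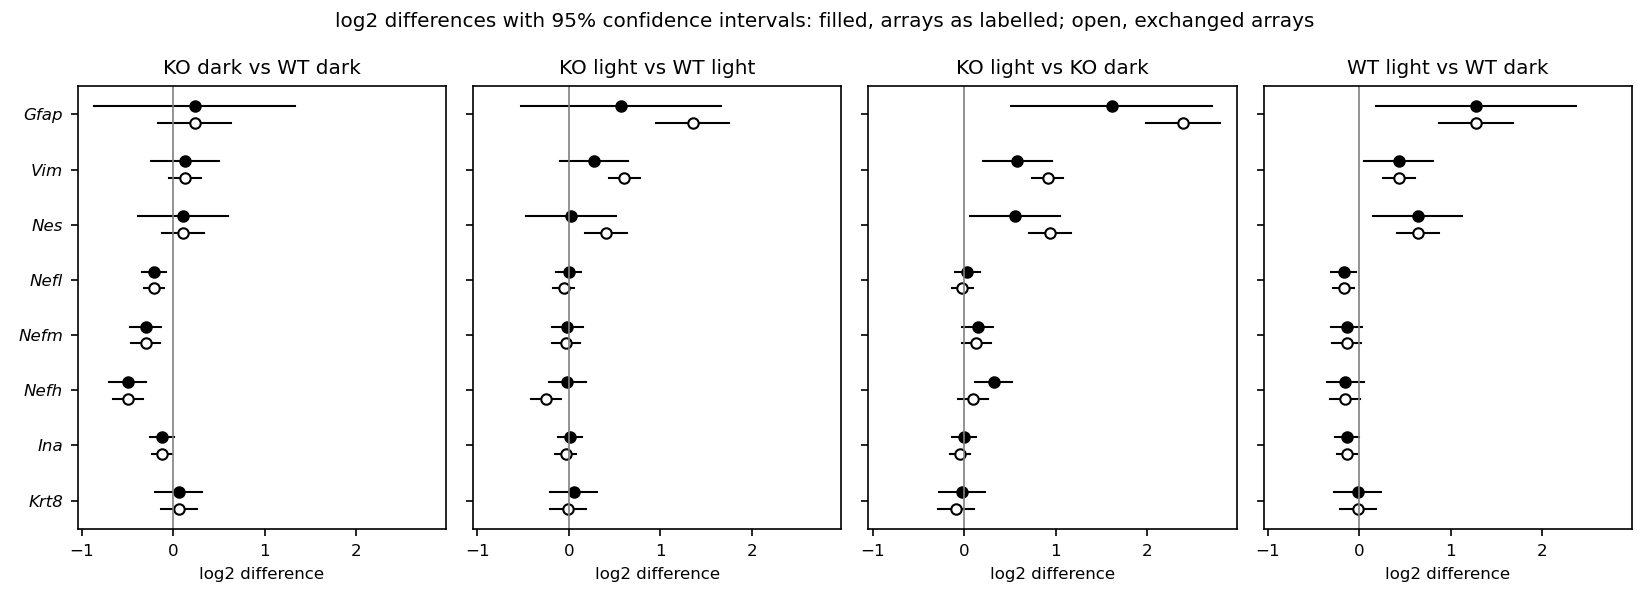
Log2 differences of the 8 tested genes in 4 comparisons, with 95% confidence intervals from limma. Filled points are the 12 arrays as labelled and open points the exchanged arrays. In both comparisons of light with dark the points of the glial genes Gfap, Vim and Nes lie to the right of 0, with narrower intervals in the exchanged arrays, and between KO dark and WT dark the points of the neurofilament genes lie to the left of 0.

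Across the 13 arrays Gfap, Vim and Nes varied together, with Pearson r of 0.960 for Gfap with Vim, 0.946 for Gfap with Nes and 0.920 for Vim with Nes. These correlations are descriptions over arrays that share groups and hence differences between groups. Of 1205 genes with an SD of at least 0.2 over the arrays, those most like Gfap were Ipo5, an importer of proteins into the nucleus (r = 0.990), Stat3, the transcription factor that carries interleukin-6 family signals to the nucleus (r = 0.990), and Klhl29 (r = 0.986). Those most like Vim were Ankrd28 (r = 0.990), Crym, which binds thyroid hormone (r = 0.982), and Ctsc, a lysosomal protease (r = 0.981). Those most like Nes were Cxcl10, an interferon-induced chemokine (r = 0.971), Cd9, a tetraspanin of the cell surface (r = 0.967), and Ifit3, an interferon-induced gene (r = 0.960).

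Stat3 read 9.47, 9.50 and 9.53 in WT dark 1 to 3, and 9.93, 10.33 and 10.67 in WT light. KO dark arrays read 9.63, 9.57 and 9.51, KO light arrays 11.48, 11.16 and 9.65, and WT dark 4 11.40. The WT light array with the highest Stat3, WT light 3, also had the highest Gfap, Vim and Nes of its group, and WT light 1 had the lowest Stat3, Gfap and Vim.

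The list of the cytokine route to Gfap held 16 ligands, receptors, kinases and targets of the interleukin-6 family, of which 15 were measured. As labelled 0 of 15 were called in any of the 5 comparisons. In the exchanged arrays 6 of 15 were higher in KO light than in WT light and 0 lower, with a list median of 0.08 against -0.02 over all genes, where 4.56% of all genes were called higher. Among them were the oncostatin M receptor Osmr, by 1.31 (SE 0.15, adjusted p = 0.000281), Stat3, by 1.04 (SE 0.14, adjusted p = 0.00052), the transcription factor gene Cebpd, by 1.00 (SE 0.16, adjusted p = 0.00163), and the shared receptor subunit Il6st, by 0.74 (SE 0.09, adjusted p = 0.000293). The feedback inhibitor Socs3 and the ligand Lif, leukaemia inhibitory factor, were the others, at 0.68 and 0.52.

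From KO dark to KO light in the exchanged arrays 7 of the 15 rose and 1, the receptor Cntfr, fell by 0.25, with a list median of 0.10 against -0.01 and with 7.01% of all genes called higher and 6.3% lower. Osmr rose by 2.05 and Stat3 by 1.78. From WT dark to WT light 3 of 15 rose, Stat3 by 0.81 (adjusted p = 0.0054), Osmr by 0.68 (adjusted p = 0.0176) and Il6st by 0.38 (adjusted p = 0.019), with a list median of 0.17 against 0.02 and with 2.13% of all genes called higher. The interaction was called for 4 of 15, Osmr, Cebpd, Stat3 and Il6st, at 1.37, 1.14, 0.97 and 0.76, against 2% of all genes. In the dark 0 of 15 were called between the genotypes.

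**Figure D3:**
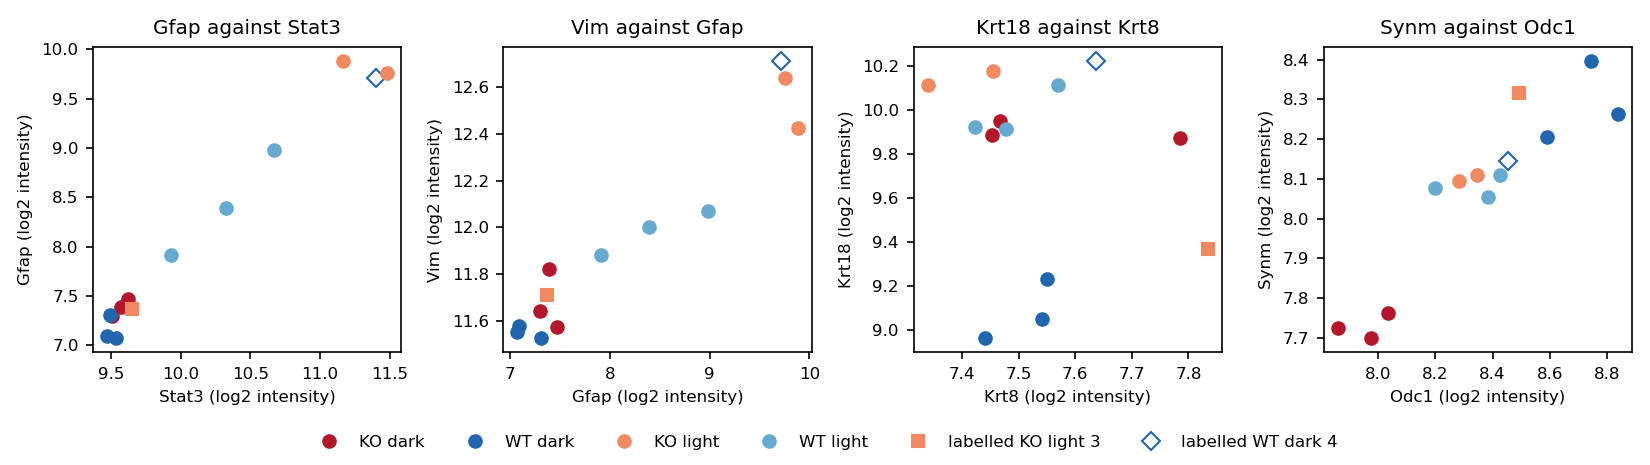
Levels of 2 genes against each other (log2 intensity on both axes), 1 symbol per array, for Gfap against Stat3, Vim against Gfap, Krt18 against Krt8 and Synm against Odc1. The dark arrays and the array labelled KO light 3 sit at the lower left for Gfap and Stat3, WT light lies between, and KO light 1 and 2 sit with the array labelled WT dark 4 at the upper right. Krt18 spans 8.96 to 10.22 with no such line against Krt8.

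Synm encodes synemin, on chromosome 7, a filament protein that joins polymers of vimentin or desmin and links them to other parts of the cytoskeleton. It was chosen for its pattern, so its values carry no test. It was lowest in KO dark, at 7.70, 7.76 and 7.73. WT dark 1 to 3 had the highest mean, with 8.26, 8.21 and 8.40. KO light arrays read 8.11, 8.10 and 8.32, WT light arrays 8.06, 8.08 and 8.11, and WT dark 4 read 8.15. No KO dark array came within the range of the other groups, while the light groups overlapped each other.

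The difference of Synm between KO dark and WT dark was -0.56, a ratio of 0.678. The KO light mean exceeded the KO dark mean by 0.45 as labelled and by 0.39 with the exchanged arrays, whereas the WT light mean differed from the WT dark mean by -0.21. After light the genotypes differed by 0.09 as labelled and 0.04 exchanged. Over the 13 arrays Synm had r of 0.067 with Vim, 0.064 with Gfap and 0.062 with Nes. With the neurofilament genes its r was 0.765 for Nefm, 0.760 for Nefh, 0.640 for Nefl and 0.399 for Ina. The gene most like Synm, and the single one with r of at least 0.9, was Odc1, which encodes ornithine decarboxylase of polyamine synthesis (r = 0.921). Odc1 was likewise lowest in the 3 KO dark arrays, at 7.98, 8.03 and 7.86, and read 8.59 to 8.84 in WT dark 1 to 3.

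Nefh encodes the heavy neurofilament subunit, on chromosome 11, which spaces filaments in large axons. It read 9.37, 9.38 and 9.37 in WT dark 1 to 3 and 8.85, 8.80 and 8.97 in KO dark, with no overlap. WT light arrays read 9.13, 9.23 and 9.30, KO light arrays 9.05, 9.08 and 9.46, and WT dark 4 read 8.78. KO light 3 thus had the highest value of all 13 arrays and WT dark 4 the lowest.

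Nefm and Nefl, the medium and light subunits, are neighbours on chromosome 14 with 0 protein-coding genes between them. Nefm read 8.30, 8.15 and 8.20 in WT dark 1 to 3 and 7.77, 7.88 and 8.08 in KO dark, while KO light arrays read 8.02, 8.02 and 8.14, WT light arrays 8.16, 8.03 and 8.05, and WT dark 4 8.10. Nefl read 11.38, 11.18 and 11.32 in WT dark 1 to 3 and 11.05, 11.14 and 11.07 in KO dark. Its KO light arrays read 11.05, 11.09 and 11.22, its WT light arrays 11.14, 11.09 and 11.13, and WT dark 4 read 11.05. For Nefh, Nefm and Nefl every KO dark array lay below WT dark 1 to 3.

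Ina encodes α-internexin, on chromosome 19, which joins the neurofilament subunits in central neurons. The mean of its 2 probe sets ranged from 10.63 to 10.78 in WT dark 1 to 3 and from 10.47 to 10.62 in KO dark. Both light groups lay between 10.50 and 10.66, and WT dark 4 was at 10.51. Its KO dark arrays too lay below WT dark 1 to 3. Without the array labelled WT dark 4, 4 of the 8 tested members thus did not overlap between the dark genotypes, against 16.7% of all genes. That array lay within the KO dark range for Nefl and Ina and below it for Nefh, so with it these genes overlapped. Fitted singly, its probe sets differed most in the step from WT dark to WT light, at -0.04 and -0.24, with neither called.

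Between KO dark and WT dark 0 of the 8 tested members were called as labelled, against 0.0752% of all genes, and 3 passed at an unadjusted p under 0.05 with the limit on the ratio, Nefh, Nefm and Nefl, against 2.11% of all genes. The difference was -0.50 for Nefh (95% confidence interval -0.70 to -0.29, adjusted p = 0.0768), -0.30 for Nefm (-0.47 to -0.14, adjusted p = 0.196) and -0.21 for Nefl (-0.35 to -0.08, adjusted p = 0.298), and -0.12 for Ina (-0.26 to 0.01). These means leave out the doubtful array labelled WT dark, while the spread estimated over all groups involves the doubtful array labelled KO light. With all 13 arrays in their labelled groups the differences were smaller and none was called. Nefh was then at -0.35 (limma's adjusted p = 0.673) and Nefm at -0.28 (adjusted p = 0.311). Nefl was at -0.15 (adjusted p = 0.787) and Ina at -0.08 (adjusted p = 0.912). When the 6 dark arrays alone were fitted, Nefh was called, at an adjusted p of 0.00472 (SE 0.05), 1 of 8 members against 0.461% of all genes called lower. Once the arrays were exchanged, Nefh was again the 1 member called, at -0.50 (SE 0.08, adjusted p = 0.0055), a ratio of 0.708, against 0.552% of all genes, and it kept that call without each of the 12 arrays in turn. Without KO light 3 and with none in its place it was called too, at an adjusted p of 0.000861 against 0.547% of all genes.

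After light the neurofilament genes of the genotypes differed by at most 0.02 in size as labelled, at 0.00 for Nefl, -0.02 for Nefm, -0.02 for Nefh and 0.02 for Ina. The interval for Nefh ran from -0.22 to 0.19. With the exchanged arrays the difference for Nefh was -0.25 (95% confidence interval -0.41 to -0.08) at an adjusted p of 0.0538 and was called without KO light 2. From WT dark to WT light the means moved by -0.17 for Nefl, -0.14 for Nefm, -0.16 for Nefh and -0.14 for Ina. None was called in the exchanged arrays either, with limma's adjusted p from 0.063 to 0.271. These differences and those between the dark genotypes use the same WT dark 1 to 3 arrays, so they are not independent. The mean of Nefl was 11.29 in WT dark 1 to 3, 11.08 in KO dark, 11.12 in WT light and 11.06 in exchanged KO light. A few neuron markers were called lower from WT dark to WT light in the exchanged arrays, as were 2.29% of all genes. Of ganglion cells 1 of 9 was called, Sncg, γ-synuclein, lower by 0.21. Of horizontal cells 2 of 6 were called, the transcription factor genes Onecut1, lower by 0.36, and Onecut2, by 0.26. The list medians were -0.10 for ganglion cells and -0.17 for horizontal cells, against 0.02 over all genes. The means of 3 ganglion cell markers and 1 horizontal cell marker were higher after light. The part of these cells in the neurofilament levels was not tested. From KO dark to KO light, Nefh differed by 0.32 as labelled (adjusted p = 0.186) and by 0.09 exchanged (adjusted p = 0.41). The interaction for Nefh, 0.48 as labelled, had an adjusted p of 0.383.

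Across the 13 arrays the neurofilament genes had r between 0.571 and 0.757 for the 6 pairs of Nefl, Nefm, Nefh and Ina. With Krt18 their r was -0.902 for Nefl, -0.625 for Nefm, -0.701 for Nefh and -0.822 for Ina. The genes most like Nefh were Chchd10, a mitochondrial gene (r = 0.905), and Cplx1, complexin of the synapse (r = 0.902). Chchd10 read 9.39, 9.41 and 9.54 in KO dark and 9.88, 9.89 and 9.88 in WT dark 1 to 3. Among genes with an SD of at least 0.2 none reached r of 0.9 with Nefl, Nefm, Ina or Krt8.

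Markers of the neurons that hold these filaments were compared as a list. For ganglion cells 9 of 10 listed markers were measured, Pou4f2 not, and as labelled 0 of 9 passed the test in the dark, with a median of 0.00 against 0.00 over all genes. In the exchanged arrays 1 of 9, the glutamate transporter gene Slc17a6, was lower in KO dark, at -0.21 (SE 0.04, adjusted p = 0.0282). Over all genes 0.552% were called lower there. The summed intensity of the list ranged from 4924 to 4985 in KO dark and from 4640 to 5106 in WT dark 1 to 3. Of 6 horizontal cell markers 0 passed the test in the dark, with sums of 1882 to 2041 in KO dark and 1769 to 1960 in WT dark 1 to 3.

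Krt18 and Krt8 encode the paired keratins of simple epithelia, and they are neighbours on chromosome 15 with 0 protein-coding genes between them. Krt18 was chosen for its pattern and was not tested. It was lowest in WT dark 1 to 3, at 8.96, 9.23 and 9.05, and in KO light 3, at 9.37. It read 9.95, 9.89 and 9.87 in KO dark, 10.11 and 10.17 in KO light 1 and 2, 9.92, 9.91 and 10.11 in WT light, and 10.22 in WT dark 4. The 9 arrays of this upper set did not overlap with the other 4.

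The difference of Krt18 was 0.82 between KO dark and WT dark, a ratio of 1.77, and 0.90 between WT light and WT dark, a ratio of 1.87. Between KO light and KO dark it was -0.02 as labelled and 0.27 with the exchanged arrays, and between KO light and WT light -0.10 and 0.19. Krt8, its usual partner in the filament, covered a range of 7.34 to 7.83. It read 7.47, 7.45 and 7.79 in KO dark, 7.44, 7.55 and 7.54 in WT dark 1 to 3, 7.34, 7.45 and 7.83 in KO light, 7.42, 7.48 and 7.57 in WT light, and 7.64 in WT dark 4. Its groups overlapped in all comparisons, and its differences as labelled lay between -0.03 and 0.06, with intervals from -0.20 to 0.31 between KO dark and WT dark. Across the 13 arrays Krt8 and Krt18 had r of -0.159.

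Genes most like Krt18 were Cox18, needed to assemble cytochrome oxidase (r = 0.957), Spry2, an inhibitor of growth factor signalling (r = 0.952), and Cdk2ap1, a partner of a cell cycle kinase (r = 0.942). Cdk2ap1 split the arrays in the same way, with WT dark 1 to 3 and KO light 3 between 10.35 and 10.46 and the other 9 between 11.53 and 11.68. Other markers of epithelium and lens were compared as a list. As labelled and exchanged, 0 of 9 differed by the test between the dark genotypes, and their summed intensity ranged from 1872 to 3841 in KO dark, 1141 to 2020 in WT dark 1 to 3 and 937 to 6116 in WT light.

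Of 21 other cytoplasmic filament genes, all measured, 0 passed the test in the dark in either set of arrays, with a list median of -0.04 against 0.00 over all genes. As labelled 1 of 21 was called in any comparison: Krt13, a keratin of stratified epithelia, was lower in WT light than in WT dark, at -0.55 (SE 0.10, adjusted p = 0.0445). In that comparison 0.431% of all genes were called. Krt13 read 6.55, 6.35 and 6.38 in WT dark 1 to 3, and 5.88, 5.94 and 5.80 in WT light. Once the arrays were exchanged, Prph, which encodes peripherin, a neuronal filament protein known for its rise in injured neurons, was higher in KO light than in WT light by 0.82 (SE 0.15, adjusted p = 0.00319) and than in KO dark by 0.88 (SE 0.15, adjusted p = 0.00106). Prph read 7.94, 7.51 and 6.97 in KO light, 8.18 in WT dark 4 and between 6.83 and 7.31 in every other array. Sync and Krt14 were lower in KO light than in KO dark, at -0.28 and -0.24, and Krt9 was lower in WT light than in WT dark, at -0.25.

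The 3 nuclear lamins gave 0 calls in any comparison in either set of arrays. Of 16 linkers and modifiers of filaments 14 were measured, and as labelled 0 were called. With the exchanged arrays Padi2, an enzyme that converts arginine to citrulline in proteins such as vimentin and Gfap, was higher in KO light than in WT light by 0.82 (SE 0.14, adjusted p = 0.00213) and rose from KO dark to KO light by 0.93 (SE 0.14, adjusted p = 0.000486). Dmd, which encodes dystrophin, was lower in KO light in both comparisons, at -0.31 and -0.38. Krtcap2, which the list held though it is not known to link or modify filaments, rose from KO dark to KO light by 0.37.

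Müller glia markers, the defining genes of the cells that hold most Vim, moved in both directions. All 13 were measured, and 0 were called in any comparison as labelled. In the exchanged arrays 3 of 13 were higher and 3 lower in KO light than in WT light. Over all genes 4.56% were called higher and 3.66% lower. The list median was 0.17 against -0.02 over all genes. Clu, clusterin, was higher by 0.45 (SE 0.06, adjusted p = 0.000728), and Glul, glutamine synthetase of Müller glia, was lower, at -0.44 (SE 0.10, adjusted p = 0.0104). From KO dark to KO light Glul was at -0.65 and Clu at 0.59. The summed intensity of the list ranged from 19975 to 20735 in WT dark 1 to 3, 20142 to 21286 in WT light, 21005 to 21259 in KO dark and 19448 to 22526 in the exchanged KO light arrays. The last range held those of all other groups.

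Astrocyte markers were few, with 5 of 5 measured. As labelled 0 were called. With the exchanged arrays 2 were higher in KO light than in WT light, against 4.56% of all genes, with a list median of 0.01 against -0.02. They were Gja1, a gap junction gene, by 1.15 (SE 0.20, adjusted p = 0.00251), and Aldh1l1, of folate metabolism, by 1.05 (SE 0.16, adjusted p = 0.00149). From KO dark to KO light Aldh1l1 alone was called, by 1.35. Gja1 read 8.59 to 8.82 in KO dark, 8.27 to 8.56 in WT dark 1 to 3 and 7.50 to 7.91 in WT light. It read 8.45 in KO light 1, 9.48 in KO light 2, 8.43 in KO light 3 and 8.79 in WT dark 4. KO light 1 and WT dark 4 thus lay within the range of the dark arrays, and KO light 2 lay above it. The summed intensity of the 5 markers, which the 2 called genes carried, was 704 to 717 in WT light and 1077 to 1298 in the exchanged KO light arrays. It was 887 to 903 in KO dark and 753 to 874 in WT dark 1 to 3. Pax2, the defining marker of retinal astrocytes, was not called and lay at 6.54 to 6.85 over the 13 arrays.

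Markers of other cells also differed in the exchanged KO light arrays. Of 8 rod markers 7 were measured, and 4 of the 7 were lower in KO light than in WT light, led by Nrl at -0.68 (SE 0.10, adjusted p = 0.000991), with a list median of -0.25 against -0.02 and with 3.66% of all genes called lower. From KO dark to KO light 3 of 7 fell, Nrl by 0.67, against 6.3% of all genes called lower. Their summed intensity was 40141 to 43578 in exchanged KO light and 45942 to 47575 in WT light. Of 8 microglia and macrophage markers 1, the lysosomal gene Cd68, was higher in KO light than in WT light, by 0.86 (SE 0.12, adjusted p = 0.000911). The list median was 0.04 against -0.02, and 4.56% of all genes were called higher. From KO dark to KO light Cd68 rose by 0.88 and P2ry12, of microglia, fell by 0.26. Of 10 pigment epithelium markers 3 were higher, Dct, Tyrp1 and Pmel, against 4.56% of all genes. All 3 were highest in KO light 2, where Dct read 10.55, against 7.81 in KO light 1 and 8.68 in WT dark 4. The sum of the list was 2404 to 4871 in exchanged KO light, 1335 to 2830 in WT light and 2233 to 4607 in KO dark. From KO dark to KO light 0 of the 10 were called. Of 10 vessel and mural cell markers 0 were called between the genotypes after light. From KO dark to KO light 2 rose, the endothelial genes Kdr, by 0.80, and Cldn5, by 0.49, against 7.01% of all genes. From WT dark to WT light 1, Kdr, rose by 0.47 (adjusted p = 0.0054), against 2.13% of all genes. The part of these cells in the levels of Gfap, Vim and Nes was not tested.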

How the data were processed

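Total RNA of mouse retina was measured on 13 Affymetrix Mouse Gene 1.0 ST arrays. The authors deposited 1 linear intensity per probe set and array, already at a common level between arrays. Partek is named in the submitters' processing notes and Partek with Bioconductor in the methods, without a version. The summarization of probe sets, the normalization between arrays and the genome build were not given in the sources used here. Per array the median intensity ranged from 141 to 146. No background value was given, so dim probe sets were kept, and the number of arrays limits the precision.

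Intensities were taken to log2, and the 21640 of 34760 probe sets with 1 symbol were averaged per gene to 19937 genes; 1321 probe sets with several symbols and 11799 with none were left out. Probe sets were named from GEO's platform annotation. A model of 4 groups was fitted to the 12 arrays with limma 3.58.1 in R 4.3.3, with Benjamini-Hochberg adjustment over all genes, 3 arrays per group and 8 residual degrees of freedom. Calls needed both an adjusted p under 0.05 and a mean ratio outside 0.87 to 1.2, except those of the interaction, which used the adjusted p alone. The labels call the arrays biological replicates. The members and lists were chosen with earlier results of these data known. Named were all 10 members, up to 3 genes per member with the highest r of at least 0.9, and in each list up to 4 called genes per comparison; any other gene was picked with its values in view. The script was tested on simulated data. Alternatives covered the exchanged arrays, the arrays and variances in the fit, a replicate block, centring, quantile normalization, an offset of 16, a filter at a log2 intensity of 6, probe sets fitted singly, a ratio of 0.8 for falls, and each array left out.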

Additional observations from a re-analysis of the deposited data

Results flagged for a closer look

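In the 4 arrays labelled WT dark, replicate 4 stood far from the other 3 for 3 members. Its log2 intensity was 9.71 for Gfap, where the gap to the nearest array made up 0.909 of the range of the group, 12.71 for Vim (0.955 of the range) and 8.78 for Nefh (0.968 of the range), each past Dixon's critical value at the 95% level. Chance alone passes that limit in about 1 of 20 groups. All 10 members were examined, and the array was already known to stand apart over all genes. The flags are therefore no separate support, and the share of all genes past that limit was not computed. Apart from the fit of all 13 arrays, the tests described above left this array out or placed it with KO light. Groups of 3 arrays were not examined in this way, so KO light 3 could not be flagged by it.

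For Synm every KO light array lay above the KO dark mean and every WT light array below the WT dark mean, a difference of 0.65 between the light responses that was not tested, since Synm was chosen for its pattern. The same held for Nefh as labelled, with a difference of 0.48. With the exchanged arrays it did not hold for Nefh, since WT dark 4 read 8.78, below the KO dark mean of 8.88. The interaction test of Nefh as labelled gave an adjusted p of 0.383, and with the exchanged arrays the difference was 0.25 with an adjusted p of 0.267.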

How the results depend on the processing

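The arrays labelled KO light 3 and WT dark 4 decided the counts. As labelled 0 of the 8 tested members were called in each of the 5 comparisons, and this count stayed at 0 with all 13 arrays, with each gene's own variance, with other normalizations, the offset, the filter, single probe sets and the other ratio. With the exchanged arrays 1 member was called between KO dark and WT dark, 3 between KO light and WT light, 3 between KO light and KO dark, 3 between WT light and WT dark, and 2 for the interaction. With the 2 groups' own arrays alone 1 was called between KO dark and WT dark and 3 between WT light and WT dark, and 0 in both comparisons that use KO light. Leaving out each array in turn, as labelled or exchanged, gave 0 to 2 members between KO dark and WT dark, 0 to 3 between KO light and WT light, 0 to 3 between KO light and KO dark, 0 to 4 between WT light and WT dark, and 0 to 2 for the interaction. As labelled only leaving out KO light 3 moved a count above 0. With the exchanged arrays Nefm was called in the dark without KO dark 3, and Nefl without WT dark 2, in the dark and between WT light and WT dark. The numbers of all genes called moved far more, from 15 as labelled to between 1 and 203 in the dark, from 35 to between 0 and 2069 after light, from 20 to between 0 and 2990 in KO, from 86 to between 9 and 983 in WT, and from 12 to between 1 and 1222 for the interaction. The cause was not tested.

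The labels number the arrays of each group, so a replicate block was fitted. Deviations of the 18 pairs of arrays with the same number had r between -0.192 and 0.220, with 3 pairs over 0.1 and 3 of 12 arrays closest to an array of their own number, so the numbers do not pair the mice. With the replicate block 0 members were called in each comparison, and 17 genes between WT light and WT dark where 86 were called without it. Since 0 members were called as labelled, no call could turn. Among differences that were not called, those of Gfap, Vim and Nes between KO dark and WT dark turned sign with all 13 arrays, to -0.41, -0.16 and -0.17. The 3 arrays per group limit what could be called, and small differences of dim genes such as Nes rest on intensities for which no background was given.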
